A study of Mus musculus with 12 samples.

Results

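Intracellular lipolysis was examined as 6 genes in the livers of fasted mice that lacked SIRT4, a sirtuin of the mitochondrial matrix, and in wild-type livers. The genes were chosen by symbol: Pnpla2, G0s2, Abhd5, Lipe, Mgll and Lipa. They were measured by 14 probe sets of 45037, each taken because the gene number on its own row was that of the gene, and they are 6 of the 17951 genes that could be named. The animals were 6 Sirt4-knockout (SIRT4 KO) and 6 wild-type (SIRT4 WT) male littermates of strain 129SV, 7 to 8 months old, given no treatment and killed after a fast of 16 h. Whole-liver RNA of each animal was hybridized to its own Affymetrix Mouse Genome 430 2.0 array, on which a probe set is a group of short oligonucleotides for 1 transcript. The labels give neither the knockout allele nor each animal's litter. Controls had been fasted as well, so every value below is a fasted one.

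Triglyceride in a cell's lipid droplets is broken down in steps. Adipose triglyceride lipase, ATGL, the product of Pnpla2, removes the first fatty acid; hormone-sensitive lipase, the product of Lipe, acts on the diacylglycerol; and monoacylglycerol lipase, the product of Mgll, releases the last fatty acid and glycerol. ABHD5, also called CGI-58, activates ATGL, and the small protein G0S2 binds and inhibits it. Lysosomal acid lipase, the product of Lipa, serves a separate route in which droplet lipid and lipoprotein lipid are digested in lysosomes. In fasted liver, fatty acids freed by ATGL feed oxidation and signalling through PPARalpha, and G0s2 is known in mouse as a PPARalpha target.

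Promoters are shown for the inhibitor G0s2, which had the largest difference of the 6 genes, for its target Pnpla2, which had a difference of the opposite sign, and for Mgll, whose window holds both an E-box and a FOXO core. Each window runs from 250 bases before to 50 bases after an annotated transcription start in RefSeq on GRCm38.p6, 5′ to 3′ on the gene's strand, and capitals mark matches to a searched motif on either strand. The G0s2 window is chr1:193273139-193273438 on the minus strand, the Pnpla2 window chr7:141454938-141455237 on the plus strand, and the first of the Mgll windows chr6:88724162-88724461 on the plus strand.
G0s2: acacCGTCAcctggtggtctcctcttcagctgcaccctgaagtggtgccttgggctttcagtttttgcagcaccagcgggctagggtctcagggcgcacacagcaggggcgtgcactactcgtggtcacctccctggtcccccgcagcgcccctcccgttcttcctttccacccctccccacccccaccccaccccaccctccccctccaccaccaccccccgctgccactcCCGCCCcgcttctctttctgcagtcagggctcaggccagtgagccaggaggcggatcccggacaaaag
Pnpla2: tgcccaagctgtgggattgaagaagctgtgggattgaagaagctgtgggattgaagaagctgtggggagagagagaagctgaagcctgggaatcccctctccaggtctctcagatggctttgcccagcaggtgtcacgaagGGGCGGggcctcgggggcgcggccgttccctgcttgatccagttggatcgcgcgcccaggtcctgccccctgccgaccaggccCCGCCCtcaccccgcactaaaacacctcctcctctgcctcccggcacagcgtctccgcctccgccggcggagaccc
Mgll: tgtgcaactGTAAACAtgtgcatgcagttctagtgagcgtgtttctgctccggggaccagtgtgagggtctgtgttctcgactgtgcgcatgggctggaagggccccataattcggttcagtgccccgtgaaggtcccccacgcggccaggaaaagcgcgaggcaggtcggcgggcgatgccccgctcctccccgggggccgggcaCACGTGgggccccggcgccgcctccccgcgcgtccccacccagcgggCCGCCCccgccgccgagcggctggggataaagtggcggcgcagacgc

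The 6 genes had 8 such windows in the table, with Mgll and Lipe holding more than 1 each. Motifs were searched on both strands. The element AGGTCA is read by many nuclear receptors, and its repeat after any 1 base, called DR1, is read by PPARalpha with RXR, so every DR1 also holds the shorter element. The E-box CACGTG is read by TFEB and USF factors. The FOXO core was searched as TGTTTAC in each window. A part of the cAMP response element was searched as TGACG in the same way, and the GC box of SP1-type factors as GGGCGG. No window of the 6 genes held DR1, which 0.0396% of all 32851 windows held. The G0s2 window held 1 TGACG, 246 bases before the start, and 1 GC box, 18 bases before it, counted from the leftmost base of the match. The Pnpla2 window held 2 GC boxes and none of the other motifs. CACGTG and TGTTTAC were found for Mgll and for Lipe, against 7.15% and 3.65% of all windows. A single AGGTCA was found for Abhd5 alone of the 6 genes, against 16.3% of windows, TGACG for Abhd5, G0s2, Lipa and Mgll (20.8%), and a GC box for all 6 (35.7%). These matches describe letters in a short window.

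Facts of the whole series bear on how far the values below can be read. The arrays had median intensities from 36.60 to 38.69 and correlated with each other at 0.988 to 0.994, across probe sets on the log2 scale. Sirt4 was lower in the knockout animals, at 104 ± 16.4 against 172 ± 14.5 in wild type (intensity, SD, n = 6 each), with no overlap between the groups and an exact permutation p = 0.00216, the smallest that 924 arrangements allow. Its limma adjusted p = 0.0534 missed the threshold of 0.05. No source used here gives the deleted part, so its place relative to that probe set was not checked. All 12 hepatocyte markers lay above the arrays' median, and their summed intensity ran from 166208 to 175711 in knockout and from 165639 to 176302 in wild type. Title numbers of the samples begin with 72 for 5 knockout and 2 wild-type animals and with 75 for 1 knockout and 4 wild-type animals. The meaning of these numbers is unlabelled, and genotype is spread unevenly over them. A hyphen and a 2 end the titles of 3 knockout arrays (replicates 1, 4 and 6) and of no wild-type array, so this ending, also unlabelled, cannot be told apart from genotype where all arrays are used. No probe set passed the limma test after Benjamini-Hochberg adjustment over all 45037, and 2651 had an unadjusted p under 0.05. Of these, 1343 were higher and 1308 lower in the knockout, or 1624 and 1022 when each array was centred on its median.

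None of the 14 lipolysis probe sets passed the threshold, where 0% of all probe sets did, and their limma adjusted p-values ran from 0.831 to 0.9997. G0s2 had the largest estimate, a log2 fold change of 0.60. The 3 bright Mgll probe sets lay at 0.10 to 0.16 and the dim one at -0.16, both Pnpla2 probe sets at -0.12 and -0.11, and no probe set of Abhd5, Lipe or Lipa lay farther from 0 than 0.089. At an unadjusted p under 0.05 there were 3 of the 14 (G0s2, and 1 bright and 1 dim Mgll probe set), where 5.89% of all probe sets lay. Of these, 2 were higher in the knockout, where 2.98% of all probe sets were, and 1 was lower, where 2.90% were. The groups overlapped at every one of the 14 probe sets, where 0.229% of all probe sets had no overlap. The median log2 fold change of the 14 was 0.028, beside 0.00027 over all probe sets, and 9 of the 14 were above 0, where 50.2% of all probe sets were. Fold changes are differences of log2(intensity + 50), which understates changes of dim probe sets and also that of Lipe. With a floor of 10 and no offset, Lipe gave 0.16, as did the brightest Mgll probe set. The dim probe sets of Abhd5, Pnpla2 and Mgll then gave -0.19, -0.40 and -0.59.

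**Figure D1:**
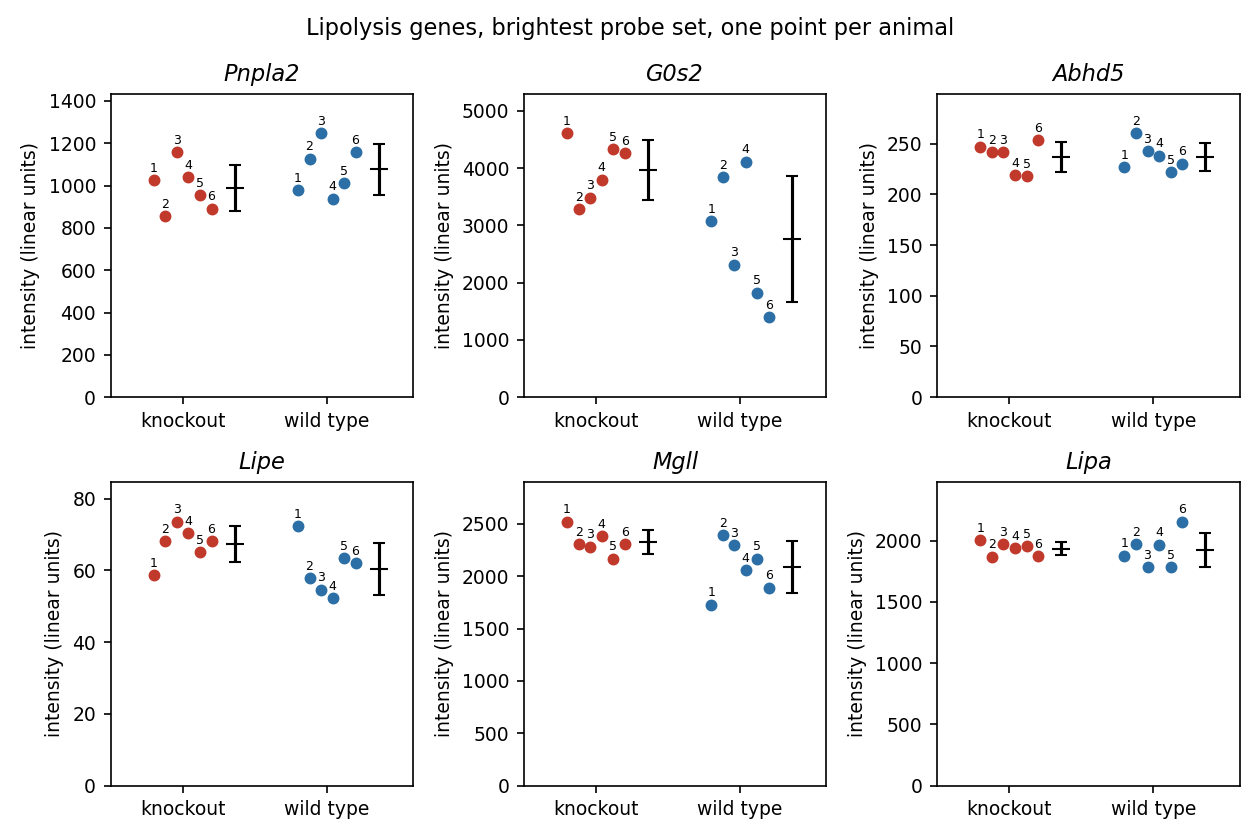
Intensity (linear units, axis from 0) of each gene's brightest probe set in each animal, knockout left and wild type right, numbered by replicate, with mean ± SD beside the points. G0s2 in the knockout lies between 3279 and 4612, whereas wild type spreads from 1402 to 4112. The ranges of the groups overlap at each of the 6 genes.

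G0s2, the ATGL inhibitor, was measured by 1 probe set (1448700_at, Entrez gene 14373). The knockout animals read 4611.68, 3278.71, 3482.03, 3801.23, 4336.27 and 4258.42 in order of replicate number. The wild-type animals read 3069.41, 3837.43, 2314.84, 4112.34, 1823.15 and 1401.78. All 6 knockout animals lay above the wild-type median, and wild type replicates 2 and 4 lay within the knockout range while the other 4 wild-type animals lay below it. Means were 3961 ± 524 in knockout and 2760 ± 1096 in wild type (SD, n = 6 each), a ratio of 1.44. The log2 fold change was 0.60 (SE 0.21, 95% interval 0.17 to 1.04), with a limma unadjusted p = 0.00993 and adjusted p = 0.831. Exact two-sided permutation of the animals gave p = 0.0411 (924 arrangements, unadjusted), and the authors' deposited table gives a fold change of 1.44 with a P of 0.0461.

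The spread of G0s2 between animals was itself wide. Its standard deviation on the log2 scale was 0.19 in knockout and 0.60 in wild type, and the standard deviation within genotype exceeded that of 99.4% of genes at their brightest probe set. Of the 6 members, the next widest was Pnpla2, which exceeded 79.2% of genes, and Abhd5 was the tightest, exceeding 11.5%. Whether the spread differs between the genotypes was not tested.

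The size of the G0s2 difference moved with the animals kept. Without wild type replicates 5 and 6 the log2 fold change was 0.27 (SE 0.14, limma unadjusted p = 0.0702, exact permutation p = 0.162), against 0.60 over all animals. These 2 animals had the lowest G0s2 values, so leaving them out could only shrink the difference. The exact permutation p exceeded 0.05 on leaving out any of 8 animals singly (knockout replicates 1, 3, 4, 5 and 6 and wild type replicates 3, 5 and 6), up to 0.0844, and stayed under it for the other 4. Without the 3 arrays of the title ending the log2 fold change was 0.51 (exact permutation p = 0.238). Among animals with title numbers beginning with 72, the mean was 3902 in 5 knockout and 3453 in 2 wild-type animals, a log2 difference of 0.17. Among those beginning with 75, the single knockout animal read 4258 and 4 wild-type animals averaged 2413, a log2 difference of 0.92. With the title prefix as a fixed effect the log2 fold change was 0.44 (SE 0.23, limma unadjusted p = 0.0786), and exact permutation within the prefixes gave p = 0.124 (105 arrangements). The estimate was above 0 under each of the 12 alternatives and with each of the 12 arrays left out. Fitting only brighter probe sets, only 1 per gene, or a trend in the variance cannot move the estimate. The offsets, the floor and the scalings reuse the same 12 arrays.

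**Figure D2:**
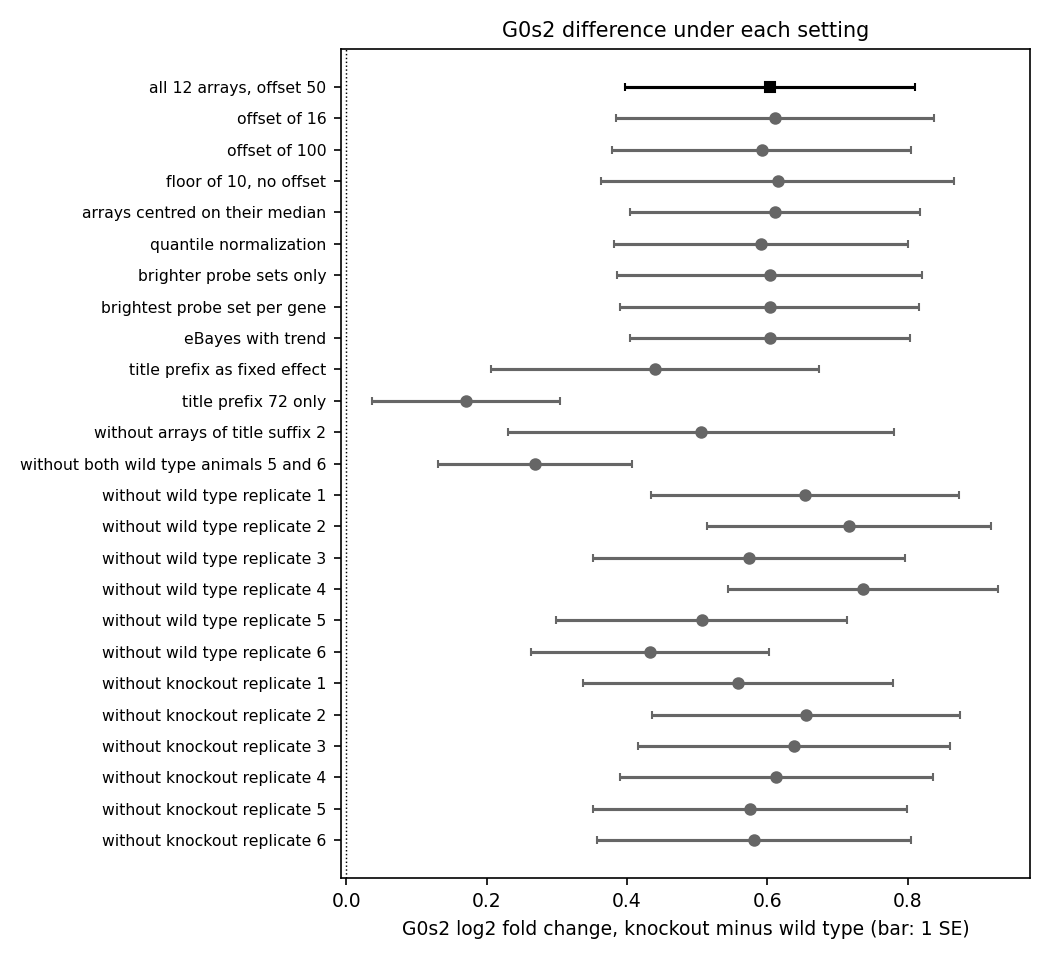
Log2 fold change of G0s2, knockout minus wild type (x axis), under each setting (y axis), with bars of 1 SE. Estimates lie between 0.17, among animals whose title number begins with 72, and 0.74, without wild type replicate 4.

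Markers of other cell types were read in the same animals. Above 0 in log2 fold change were 8 of 10 sinusoidal endothelial, 6 of 10 T and NK cell and 5 of 8 cholangiocyte markers. Likewise above 0 were 4 of 7 erythroid and 4 of 13 stellate cell and fibroblast markers, and none in these lists passed the limma test. Wild type replicate 5 had the lowest summed intensity of all animals for endothelial (3275) and cholangiocyte (607) markers. No Kupffer cell and macrophage or neutrophil marker passed the limma test (lowest adjusted p = 0.821 and 0.826 for the 2 lists). All 15 measured Kupffer cell and macrophage markers of 16 listed were below 0 in log2 fold change, with a median of -0.32. Over all genes, 50.3% were above 0. At a limma unadjusted p under 0.05, 12 of the 15 were lower, where 3.29% of all genes were. The summed intensity of the 15 ran from 6522 to 9729 in knockout and from 8310 to 12539.8 in wild type. Neutrophil markers, of which 10 of 12 were measured and 9 were below 0, summed to between 536.6 and 709.7 in knockout and between 567 and 1299.9 in wild type. Wild type replicates 5 and 6, the animals lowest for G0s2, had the highest sums of both lists, at 944 and 1299.9 for neutrophil markers and 11307 and 12539.8 for macrophage markers. Wild type replicates 1 and 3 came close for macrophage markers, at 11165 and 11130. Wild type replicate 3, next lowest for G0s2 at 2315, had the lowest neutrophil sum of the wild-type animals, at 567. The difference in the neutrophil sum lay mostly in S100a8 and S100a9. S100a8 read 23.2 ± 19.1 in knockout and 88.4 ± 111.2 in wild type, and S100a9 43.3 ± 29.0 in knockout and 118 ± 122 in wild type (SD, n = 6 each). Ltf and Il1b, the 2 of this list lower at a limma unadjusted p under 0.05, had log2 fold changes of -0.21 and -0.24. Over all genes, 3.29% were lower at that level. Ngp, Mmp8, Cxcr2, Camp, Mmp9 and Csf3r had -0.13, -0.084, -0.047, -0.018, -0.00093 and 0.053. S100a8 and S100a9 were picked out after their values were seen. The same 2 animals had the highest sums of B cell markers, at 605 and 706. No marker of these lists was at 0 on any array. In whole tissue, fewer cells of a type and less RNA per cell cannot be told apart, and the part of these cells in the G0s2 result was not tested.

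**Figure D3:**
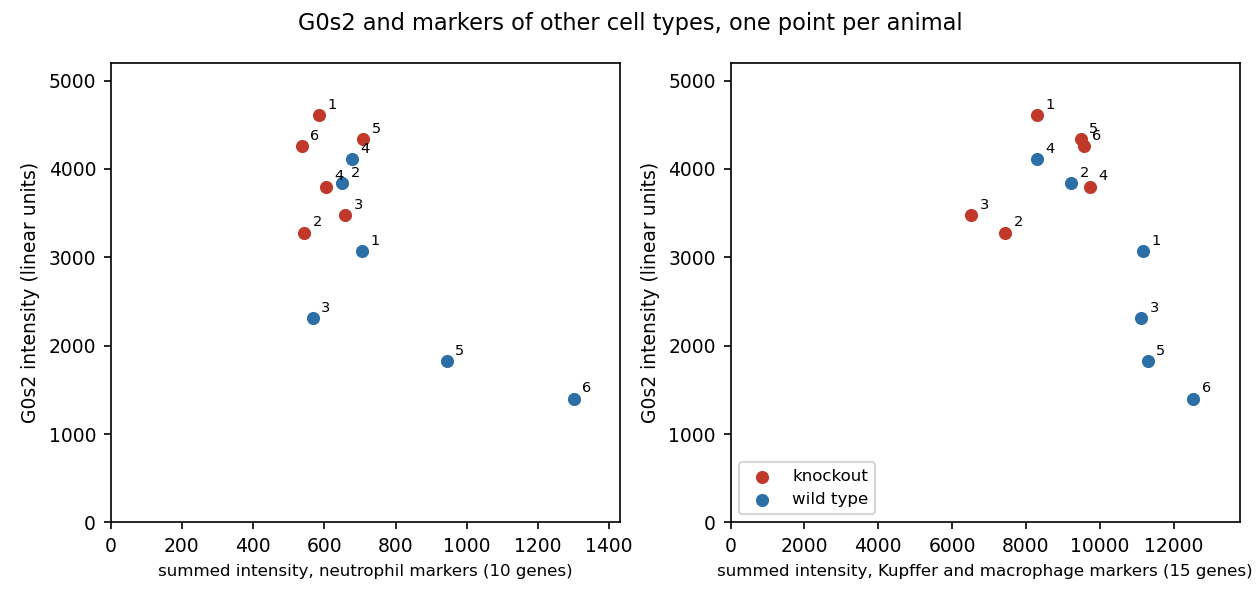
G0s2 intensity (y axis, linear units) against the summed intensity of neutrophil markers (left) and of Kupffer and macrophage markers (right) in each animal, numbered by replicate, knockout red and wild type blue. Wild type replicates 5 and 6 have the lowest G0s2 values and the highest sums of both lists. Wild type replicate 3, next lowest for G0s2, has the lowest neutrophil sum of the wild-type animals.

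Pnpla2, which encodes ATGL, had a bright and a dim probe set. The bright one (1428143_a_at, Entrez gene 66853) ran from 856 over a median of 991 to 1156 in knockout, and from 938 over 1068 to 1248 in wild type. The groups overlapped broadly, with 1 knockout animal above the wild-type median. Means were 987 ± 110 in knockout and 1077 ± 120 in wild type (SD, n = 6 each), the log2 fold change was -0.12 (SE 0.079, 95% interval -0.29 to 0.048), and the exact permutation p was 0.208. Leaving out arrays singly moved the log2 fold change between -0.16 and -0.077, the last without wild type replicate 3, and it was -0.065 within title prefix 72. The dim probe set (1428591_at) lay below the median of the array on all 12 arrays and gave -0.11, or -0.058 without wild type replicate 6, -0.012 without the 3 arrays of the title ending and -0.013 within title prefix 72. The pair correlated at r = 0.34 over the 12 arrays. G0s2 and Pnpla2, inhibitor and lipase, had estimates of opposite sign, and neither passed the test.

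Abhd5, the ATGL activator, was nearly the same in both genotypes. Its brightest probe set (1417566_at, Entrez gene 67469) had a median of 242 and a range of 218 to 254 in knockout, and a median of 234 and a range of 222 to 260 in wild type. Means were 237 ± 14.9 in knockout and 237 ± 13.8 in wild type (SD, n = 6 each), with a log2 fold change of -9.8e-05, whose sign turned under several settings, and a 95% interval of -0.11 to 0.11. A change of more than 0.11 in either direction lay outside that interval. The second probe set (1417565_at) gave 0.038 and followed the first across arrays (r = 0.81), and the third (1447548_at), below the median on every array, gave -0.051, or -0.0022 without wild type replicate 2.

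Lipe, which encodes hormone-sensitive lipase, had 1 probe set (1422820_at, Entrez gene 16890), above the array median on all 12 arrays. It ran from 58.7 over a median of 68.2 to 73.6 in knockout, and from 52.3 over 60.0 to 72.3 in wild type, so 5 of 6 knockout animals lay above the wild-type median within overlapping ranges. Means were 67.3 ± 5.08 in knockout and 60.4 ± 7.20 in wild type (SD, n = 6 each), the log2 fold change was 0.089 (SE 0.053, 95% interval -0.022 to 0.20), and the exact permutation p was 0.0866, or 0.0152 without wild type replicate 1, 0.0455 without knockout replicate 1 and at most 0.167 without any other single animal. Within title prefix 72 the log2 fold change was 0.027. Lipe is abundant in adipocytes, whose markers were therefore read beside it. Of the 12 adipocyte markers, all measured, 6 were above 0 and 6 below, and 7 lay below the arrays' median, among them Adipoq at 15.6 ± 2.59 in knockout and 13.9 ± 3.94 in wild type and Lep at 3.65 ± 2.43 in knockout and 5.78 ± 4.10 in wild type. The list's summed intensity ran from 12415 to 15413 in knockout and from 8921 to 15149.8 in wild type and consisted mostly of Car3, which liver also makes. The other 11 markers summed to between 484 and 653 in knockout and between 532 and 972 in wild type.

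Mgll, which encodes monoacylglycerol lipase, had 3 bright probe sets that pointed the same way. The brightest (1426785_s_at, Entrez gene 23945) read from 2166 over a median of 2304 to 2520 in knockout, and from 1728 over 2112 to 2394 in wild type. All 6 knockout animals lay above the wild-type median, and 3 wild-type animals lay below every knockout animal. Means were 2326 ± 118 in knockout and 2089 ± 251 in wild type (SD, n = 6 each), the log2 fold change was 0.16 (SE 0.071, 95% interval 0.0076 to 0.31, limma unadjusted p = 0.0406, adjusted p = 0.840), and the exact permutation p was 0.0671. Leaving out arrays singly moved the exact p between 0.0195 (wild type replicate 2) and 0.130 (knockout replicate 1), and under 0.05 also without wild type replicate 3 (0.0346). The limma unadjusted p exceeded 0.05 without any of 8 arrays (wild type replicates 1, 4 and 6 and knockout replicates 1, 2, 3, 4 and 6), up to 0.113, and was 0.0661 with the prefix as a fixed effect and 0.245 without the 3 arrays of the title ending. The other bright probe sets gave 0.14 (1450391_a_at) and 0.10 (1453836_a_at) and correlated with the first at r = 0.81 and 0.92 over the 12 arrays, so they are not independent measurements. Without the 3 arrays of the title ending the 3 bright probe sets gave 0.11, 0.072 and 0.055 (1426785_s_at, 1450391_a_at, 1453836_a_at), and 1453836_a_at gave 0.060 without wild type replicate 1. Within the title prefixes the brightest gave 0.19 (72, 5 knockout and 2 wild-type animals) and 0.13 (75, 1 knockout and 4 wild-type animals).

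The dim Mgll probe set (1431331_at) had the opposite sign to the other 3. It averaged 14.3 ± 6.89 in knockout and 21.8 ± 4.95 in wild type (SD, n = 6 each), below the median of the array on all 12 arrays. Its log2 fold change was -0.16 (SE 0.071, limma unadjusted p = 0.0337, adjusted p = 0.837), and it correlated with the bright ones at r from -0.40 to -0.17. Its exact permutation p of 0.0584 ran from 0.0303 (without wild type replicate 3, knockout replicate 1 or knockout replicate 2) to 0.110 with arrays left out singly. Its limma unadjusted p exceeded 0.05 without wild type replicates 1, 2, 4 or 6 or knockout replicates 3, 4 or 6, up to 0.0839, and was 0.132 without the 3 arrays of the title ending.

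**Figure D4:**
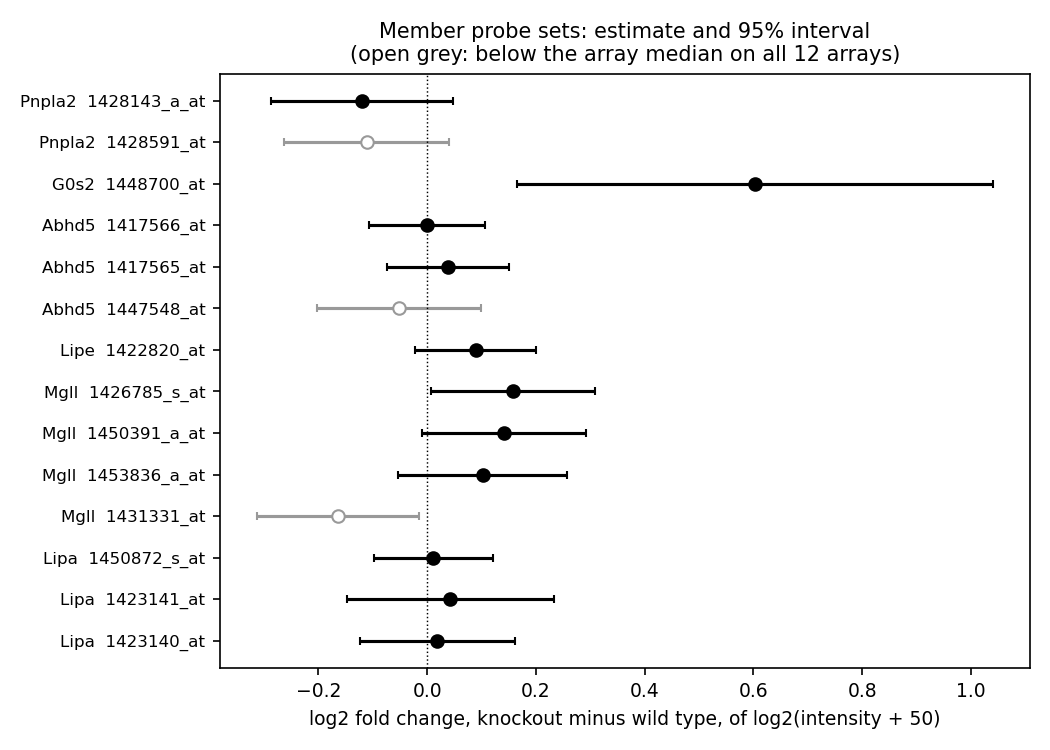
Log2 fold change, knockout minus wild type (x axis), of each of the 14 probe sets with its 95% interval; open grey points lay below the array median on all 12 arrays. G0s2 has the largest estimate and the widest interval (0.17 to 1.04), and 3 Mgll probe sets lie at 0.10 to 0.16.

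Lipa, which encodes lysosomal acid lipase, was close to equal in the genotypes at 3 probe sets. The brightest (1450872_s_at, Entrez gene 16889) ran from 1868 over a median of 1945 to 2002 in knockout, and from 1783 over 1921 to 2154 in wild type, with wild type replicate 6 the highest animal. Means were 1934 ± 54.2 in knockout and 1922 ± 140.5 in wild type (SD, n = 6 each), the log2 fold change was 0.011 (SE 0.052, 95% interval -0.098 to 0.12), and its sign turned under other settings. The probe sets 1423141_at and 1423140_at gave 0.043 and 0.019, and both signs turned as well. Lipa is also expressed in macrophages, whose markers had log2 fold changes below 0 as given above, with none passing the adjusted test. The part of macrophage RNA in the Lipa value was not tested.

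Between animals, no pair of members passed a test of correlation. Over 15 pairs of genes at their brightest probe sets and 12 animals, Pearson's r on the log2 scale ran from -0.45 to 0.46, and 0 of the 15 had an adjusted permutation p under 0.05. G0s2 and Pnpla2 had r = -0.45 (permutation p = 0.143, adjusted p = 0.766) and Spearman's rho = -0.42 (p = 0.177, adjusted p = 0.885), and r = -0.29 once values were centred within genotype. Leaving out the 2 animals farthest from the median of Pnpla2 gave r = -0.44. G0s2 and Mgll had r = 0.46 (permutation p = 0.120, adjusted p = 0.766) with rho = 0.45 (p = 0.148, adjusted p = 0.885). It was 0.26 without wild type replicates 5 and 6, the 2 animals farthest from the median of G0s2. Abhd5 and Mgll had r = 0.44 (permutation p = 0.153, adjusted p = 0.766) with rho = 0.57 (p = 0.0585, adjusted p = 0.877) and r = 0.71 without knockout replicates 4 and 5. Within the 7 animals of title prefix 72 the pairs G0s2 with Pnpla2, G0s2 with Mgll and Abhd5 with Mgll had r of 0.19, 0.63 and 0.43, so the sign of the first did not hold within that prefix. No correlation was computed over the 5 animals of prefix 75, fewer than the 6 required here. G0s2 and Lipa had r = -0.0061 over all animals and r = 0.80 without wild type replicates 5 and 6, so that relation rests on which animals are kept. Without wild type replicate 6 alone G0s2 and Lipa had r = 0.86 (permutation p = 0.00103, adjusted p = 0.0154, n = 11). That animal was the lowest for G0s2 and the highest for Lipa. No other pair passed under any setting run, and the adjustment covers only the 15 pairs of that setting. Within title prefix 72, whose 7 animals are among those 11, r was 0.80.

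The genes most like G0s2 across the 12 arrays, by Pearson's r after centring within genotype among 8174 genes with a mean intensity over 100, included Spp2 (0.89), Car3 (0.88), Ces1d (0.87) and Tmem134 (0.86). Ces1d is a carboxylesterase of the endoplasmic reticulum that hydrolyses triglyceride. Ces1d read 5492 ± 355 in knockout and 4198 ± 1115 in wild type (SD, n = 6 each), and Car3, a carbonic anhydrase, 13567 ± 1036 in knockout and 11089 ± 2856 in wild type. Both had a wide wild-type spread, as G0s2 did. Choosing genes by r with G0s2, whose spread lay mostly in wild type, favours genes with such a spread. The genes most like Pnpla2 were Pnpla7 (0.91), H3f3b (0.88), Neat1 (0.86), Mdm4 (0.86) and Grb14 (0.85). Pnpla7, a lysophospholipase of the same patatin-like family, read 1103 ± 133 in knockout and 1387 ± 224 in wild type (SD, n = 6 each). These are the highest of many values and are given as a description, without a test.

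The pathway around the 6 genes was read from 5 lists of 90 genes, 87 of them measured. None passed the limma test over all probe sets, where 0% of genes did; at an unadjusted p under 0.05 there were 13 higher and 2 lower in the knockout, 17.2% of the 87, where 6.54% of all genes reached that level, 3.25% higher and 3.29% lower. Of the 87, 58 were above 0, where 50.3% of all genes were, with a median log2 fold change of 0.039, beside 0.00052 over all genes. Without wild type replicates 5 and 6 the number at an unadjusted p under 0.05 was 9, against 15 with all animals. The number over all probe sets then fell from 2651 to 2246. Genes of the lists vary together, and the lists were chosen with earlier results of these data known, so these counts are a description.

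Of the 15 regulators of ATGL and droplet proteins, 3 reached an unadjusted p under 0.05, where 6.54% of all genes did, and none the adjusted threshold. Fitm2, an endoplasmic reticulum protein needed for droplet formation, had the smallest p of the 87 pathway genes. It read 814 ± 41.5 in knockout and 634 ± 71.5 in wild type (SD, n = 6 each), with a log2 fold change of 0.34 (limma adjusted p = 0.495). Its groups did not overlap, where 0.229% of all probe sets had no overlap. The droplet coat protein gene Plin4 gave 0.41, Hsd17b11, a droplet-associated dehydrogenase, 0.20, and Plin1, the main coat protein of adipocyte droplets, -0.12. Among 19 measured of 22 other neutral lipid hydrolases, with a median of 0.088, 6 were higher and 1 lower at an unadjusted p under 0.05. Over all genes, 3.25% were higher and 3.29% lower at that level. Ces1d gave 0.43, hepatic lipase Lipc 0.23, Ces1f, whose probe set may also read related carboxylesterases, 0.21, and Pnpla7 -0.31, with limma adjusted p-values of 0.821 to 0.831.

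Genes of hormone control held the nuclear receptor gene Ppara, at 1199 ± 94.5 in knockout and 998 ± 130 in wild type (SD, n = 6 each; log2 fold change 0.26, limma adjusted p = 0.821). Of the 20, 2 were higher and 1 lower at an unadjusted p under 0.05, beside 3.25% and 3.29% of all genes, with a median of 0.040. The beta-1 adrenergic receptor gene Adrb1 gave -0.19, the protein kinase A subunit gene Prkar2b, dim on all 12 arrays, 0.15, and the adenylyl cyclase gene Adcy6 0.11. Among 17 genes for the use of released glycerol and fatty acids, with a median of 0.045, 2 were higher at that level, beside 3.25% of all genes. These were Acsl1, which activates long-chain fatty acids (0.14), and the glycerol channel gene Aqp9 (0.12), while glycerol kinase Gk gave 0.15 and Fabp4 -0.17. In the lysosomal list, to which Lipa's route belongs, 0 of 16 reached an unadjusted p under 0.05, beside 6.54% of all genes, and the median was 0.0036. Its smallest p-values belonged to Scarb2 (0.090), Tfeb (0.15), a transcription factor of lysosomal genes, Mitf (-0.073) and the cholesterol exporter Npc1 (0.066), given here as log2 fold changes.

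**Figure D5:**
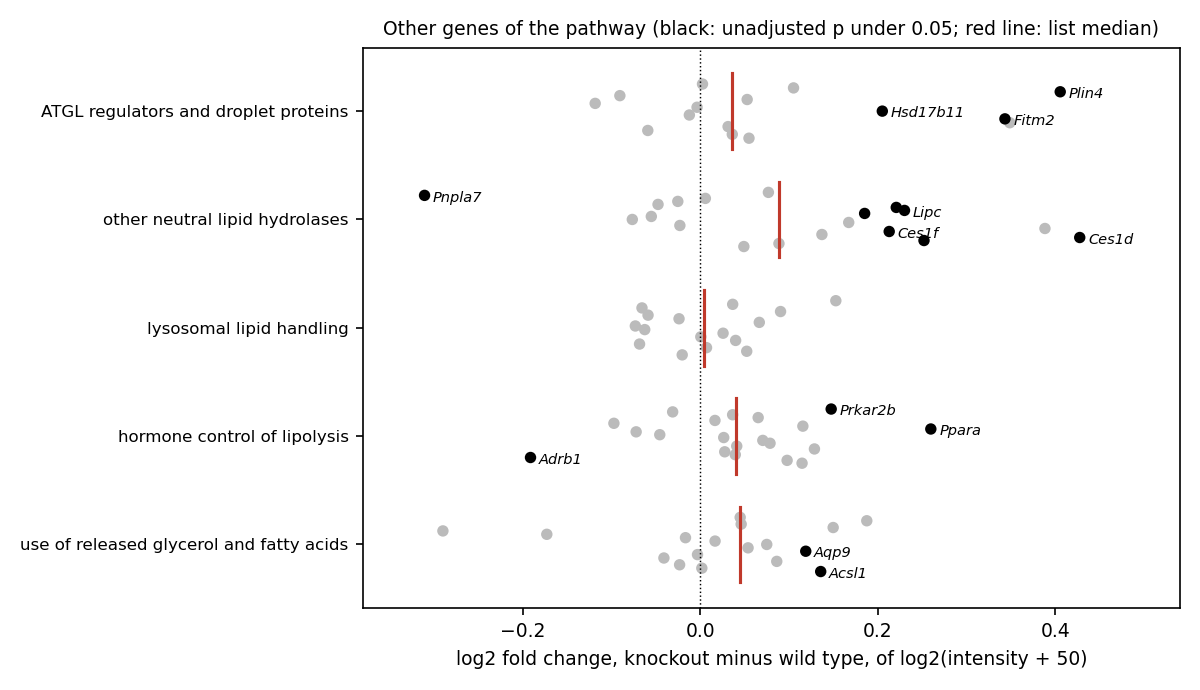
Log2 fold change, knockout minus wild type (x axis), of each measured gene of 5 lists around lipolysis (y axis), with black points at an unadjusted p under 0.05 and red lines at list medians. Medians lie between 0.0036 for lysosomal lipid handling and 0.088 for other neutral lipid hydrolases.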

How the data were processed

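The authors deposited intensities for 12 arrays, 1 per animal. Their only recorded tool, per the submitters' processing notes, is RMA, without a version. A linear scale was read from the values, which reach 0 in 689 of 540444 cells. The authors' deposited table also holds a signed fold change (a score: the ratio of the group means that the table itself lists, which are not plain means of the arrays, with a minus sign for the inverse ratio) and unadjusted p-values, used here only where named. In that table a block of gene symbols is out of order: its accession matched the one beside it on 1 row. Probe sets were named by the gene number they carry (36239) or, where blank, by accession (620), using a RefSeq table of GRCm38.p6. Another 1229 matched several genes and 6949 none. The files name no genome build; the only coordinates given are those of promoter windows in the RefSeq tables.

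Groups came from the genotype label. Replicates were numbered in accession order, which pairs no animals. P-values rest on the variation between these animals only and treat the animals as independent, although litters are not labelled. Log2(intensity + 50) was fitted for all 45037 probe sets with limma version 3.58.1 under R version 4.3.3 (lmFit, eBayes, two-sided, Benjamini-Hochberg adjustment, threshold 0.05), after the fit was tested on simulated data. Single probe sets were also tested by two-sided exact permutation, and correlations by 100000 resamples. With 12 arrays, log2 fold changes had a median standard error of 0.0628. Members, lists and tests were chosen with earlier results of these data known. The text names the members, Sirt4, the 4 genes of each pathway list with the smallest p, the 5 genes most like G0s2 and Pnpla2 (1 of them is not reported here), and defining markers. The alternatives were other offsets, a floor, scalings, filters, a trend, the title prefix and suffix, and left-out arrays.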

Additional observations from a re-analysis of the deposited data

Results flagged for a closer look

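Over 15 probe sets in 2 groups each, 3 of the 30 groups held an animal that stood apart from the rest, and these were 2 wild-type animals, where chance alone sets about 1 in 20 groups apart in this way. At the Lipa probe set 1423140_at, wild type replicate 6 read 554 while the other wild-type animals ran from 416 to 448, a gap of 0.768 of the group's range. At the dim Pnpla2 probe set 1428591_at, the same animal read 37.8 and the others from 18.2 to 24.6, a gap of 0.674. At the dim Abhd5 probe set 1447548_at, wild type replicate 2 read 29.9 and the others from 12.8 to 18.9, a gap of 0.644.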

How the results depend on the processing

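There were 35 results, 12 alternatives and 12 arrays to leave out. Exact p-values and the count of pairs were not recomputed under the filter on brightness, 1 probe set per gene or the trend, nor the count of pairs under the prefix term. Probe sets removed by the filter or dimmer than another of their gene have no value there. No member or pathway gene passed the adjusted threshold under any setting run. Sirt4 passed it under quantile normalization (-0.53), with 1 probe set per gene (-0.53) and without the 3 knockout arrays whose title ends in a hyphen and a 2, here called suffix 2 (-0.66), where the count of called probe sets was 1 in each; with arrays left out singly it ran from -0.56 to -0.48, and the count from 0 to 1 (1 without wild type replicate 1). The exact permutation p of G0s2 was 0.0519 after quantile normalization, 0.429 within prefix 72, 0.238 without suffix 2, 0.162 without wild type replicates 5 and 6 and 0.124 with the prefix as a fixed effect; left out singly, 0.0130 to 0.0844. Members at an unadjusted p under 0.05 numbered 1 with the prefix as a fixed effect and 0 within prefix 72, without suffix 2 and without wild type replicates 5 and 6, and 1 to 5 with arrays left out singly (1 without wild type replicates 4 or 6 or knockout replicates 4 or 6, 5 without knockout replicate 5), against 3. Pathway genes at that level numbered 7 without suffix 2 and 9 without wild type replicates 5 and 6 (12 to 19 left out singly), against 15. Over all probe sets the number at that level fell as well, from 2651. It was 2545 with the prefix as a fixed effect, 1809 within prefix 72, 1880 without suffix 2 and 2246 without wild type replicates 5 and 6. Left out singly, it ran from 2207 (knockout replicate 6) to 3078 (knockout replicate 5). The count of member pairs passing ran from 0 to 1.

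Estimates near 0 turned sign, and the cause was not tested. Within prefix 72, Abhd5 1417565_at gave -0.0048 and Lipa 1423141_at -0.035 (exact permutation p = 0.905 for both). Abhd5 1417566_at gave 0.0078 with arrays centred on their median and 0.0037 with the prefix term (exact p = 0.866 and 0.933). Lipa 1423140_at gave -0.0015 after quantile normalization and -0.035 without suffix 2 (exact p = 0.978 and 0.810), and Lipa 1450872_s_at -0.0083 after quantile normalization and -0.00045 with the prefix term (exact p = 0.892 and 0.990). With arrays left out singly, Abhd5 1417566_at ran from -0.017 to 0.023 (exact p 0.556 to 0.970), Lipa 1423140_at from -0.019 to 0.072 (0.188 to 0.996), Lipa 1423141_at from -0.0047 to 0.0999 (0.288 to 0.948) and Lipa 1450872_s_at from -0.0090 to 0.044 (0.227 to 0.983). Exact p-values of the other members then ran from 0.0152 to 0.167 for Lipe, 0.0195 to 0.130 for Mgll 1426785_s_at, 0.0303 to 0.110 for Mgll 1431331_at and 0.0325 (without wild type replicate 5) to 0.184 for Mgll 1450391_a_at; Mgll 1431331_at had 0.0476 with the prefix term. No paired analysis was possible because the labels carry no replicate numbers, and those used here follow the order of the records. Dim probe sets, 3 of the 14, lie where signal over background limits any reading.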

Other observations

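B cell markers, a list outside the lipolysis comparison, had 9 of 10 members measured, all 9 below 0 in log2 fold change with a median of -0.060. Their summed intensity ran from 371 to 446 in knockout and from 484 to 706 in wild type, without overlap, and the highest sums were those of wild type replicates 5 and 6. Most of the difference lay in Ighm, at 64.0 ± 5.68 in knockout and 107 ± 21.7 in wild type, and Jchain, at 65.4 ± 27.2 in knockout and 142 ± 90.8 in wild type (SD, n = 6 each), both picked out after their values were seen. Cd79a, Cd79b, Blk and Cd22 had log2 fold changes of -0.038, -0.0015, -0.037 and -0.042. No member of the list passed the limma test (lowest adjusted p = 0.236).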
